A study of Sus scrofa with 10 samples.

Results

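The genes RAB1B, COPB2 and GBF1 belong to the machinery that carries newly made protein between the endoplasmic reticulum (ER) and the Golgi. TOR1A, an ATPase in the lumen of the ER, is described with them. Their members were taken as every array feature that the annotation of the array pairs with one of these 4 symbols, whatever its value. This gave 13 of the 45220 features, with 2 for RAB1B, 2 for TOR1A, 4 for COPB2 and 5 for GBF1.

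The tissue was the ampullary-isthmic junction of the oviduct, where fertilization takes place in the pig. It came from 5 artificially inseminated and 5 non-inseminated Landrace x Large White sows in spontaneous oestrus, all sampled after ovulation and none given hormones. Oviducts were not flushed and whole tissue was used, so that a lower signal from fewer cells of a type and from less RNA per cell cannot be told apart. Each sow gave 1 single-colour array, and a sow's name begins with AI in both groups. Sow ages were not given in the labels, and the progesterone of single sows was not analysed here.

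Secretory cells of the oviduct epithelium release glycoproteins into the fluid that surrounds the gametes, and proteins on this route enter the ER, leave it in vesicles with a COPII coat and pass to the Golgi. RAB1B is a small GTPase that regulates this step and acts upstream of GBF1. GBF1 is the exchange factor that loads ARF GTPases with GTP at the early Golgi, and membrane-bound ARF recruits the COPI coat, of which COPB2 is a subunit, for transport back to the ER. TOR1A is an ATPase in the lumen of the ER and nuclear envelope.

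Values are log2 intensities after quantile normalization, which gives all arrays nearly the same distribution. The median of all values was 7.09, the 1st percentile was 6.14 and the 90th was 10.83, so that values close to 6 or 7 lie in the dim bulk of the array. The share of an array's features that lie below a value is used here to place a feature on its own array. It does not rank the abundance of different genes, since features differ in how brightly they hybridize. Differences are inseminated minus non-inseminated means of log2 intensity, with standard errors (SE) from limma. Means are given with the SD of 5 sows.

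RAB1B was represented by a pair of features that behaved unlike each other. Feature 3834, designed on the cDNA clone BX916033, read 6.84 in AI943, 6.23 in AI993, 5.23 in AI837, 12.6 in AI1059 and 4.46 in AI792 among the inseminated sows. In the non-inseminated sows it read 5.03 in AI788, 4.29 in AI1061, 4.26 in AI991, 3.69 in AI696 and 3.87 in AI992. One inseminated sow, AI1059, was bright on its array, where 95.8% of the features lay below this value. In AI943 that share was 37.3%, and in the other 8 sows the feature lay among the dimmest on the array, at shares from 0.0% to 1.4%. The groups overlapped, since AI792 lay below the non-inseminated AI788.

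The mean of feature 3834 was 7.07 ± 3.22 in inseminated and 4.23 ± 0.516 in non-inseminated sows. The difference of 2.84 (SE 1.25) corresponds to a 7.18-fold ratio of geometric means, taken against values that mostly lay at the bottom of the array. With all values below the 5th percentile (6.43) raised to it, the difference was 1.32. In an exact permutation of the group labels the unadjusted two-sided p was 0.0159, where 5 sows against 5 can give no p below 0.00794. In limma the unadjusted p was 0.0433 and the adjusted p over all features was 0.9998. Of all features, 2.08% were higher in inseminated sows at an unadjusted p under 0.05 and 0.181% were at least 2-fold higher. Feature 3834 was the 1 of the 13 members that met either criterion. None of the 13 passed a false discovery rate of 5%, nor did any other feature (0% of 45220, with 1525 at an unadjusted p under 0.05 in limma).

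The size of the RAB1B difference depended on AI1059. Without this sow it was 1.46, and leaving out any other sow gave values up to 3.5. AI1059 stood 5.75 above the next sow on the log2 scale, a 54.0-fold ratio. The whole range of feature 3834, 8.91, was wider than that of every other feature on the array. In 7 sows, 2 inseminated and all 5 non-inseminated, the feature lay below the 1st percentile of all values, where spread between sows has no reading against a spot background because the background values were not analysed here. Only 114 features (0.252%) lay so low in 7 or more sows, and feature 3834 was the 1 among them that exceeded the 90th percentile in any sow. This description of the low features was chosen after the values had been seen.

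Feature 24577, designed on the RefSeq transcript NM_001123173, which the pig reference assigns to RAB1B, did not show this pattern. It read 7.06, 6.63, 7.38, 7.06 and 7.03 in the inseminated sows AI943, AI993, AI837, AI1059 and AI792. It read 6.79, 6.81, 7.24, 6.96 and 6.97 in the non-inseminated sows AI788, AI1061, AI991, AI696 and AI992. The groups overlapped throughout, and AI1059 lay in the middle of the range. The means were 7.03 ± 0.269 and 6.95 ± 0.179, with a difference of 0.08 (SE 0.14, exact permutation p = 0.595). In 8 of the 10 sows this feature lay below the median of its array, in the dim bulk. It lay below the 5th percentile of all values in no sow, whereas feature 3834 did so in 8 sows.

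Across the 10 sows the RAB1B features had a Pearson correlation of 0.05 (permutation p = 0.882, adjusted over 18 pairs 0.882) and a Spearman correlation of 0.15 (p = 0.682, adjusted 0.850). Without AI943 and AI1059, the sows farthest from the median, r was -0.30. The mean of both features, the value of the gene, was 7.05 ± 1.61 against 5.59 ± 0.238, and its difference of 1.46 (SE 0.63) averaged the 2.84 of one feature and the 0.08 of the other. The exact permutation p of the gene was 0.0238, the unadjusted limma p was 0.0409 and the adjusted p over all genes was 0.9994. Without AI1059 the gene difference was 0.77, with values raised to the 5th percentile it was 0.70, and with dim features left out, or by the feature with the higher mean, it was 0.08. The pig reference lists RAB1B also as a synonym of RAB1A, a close relative with a similar role, and the clone BX916033 was not found in it. Here the gene behind feature 3834 was therefore taken from the annotation of the array. The paper compared its probe sets with sequence databases and lists this clone as RAB1B. It reports a qPCR difference in the same direction, smaller than on the array.

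**Figure D1:**
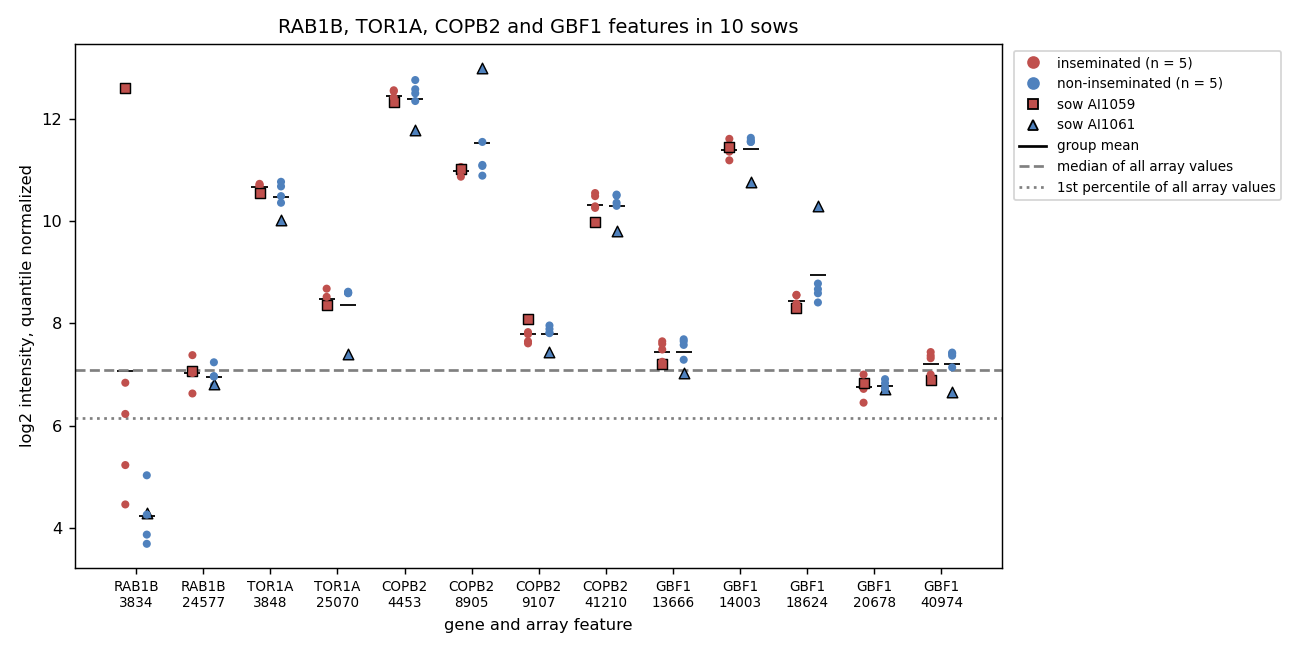
Log2 intensity (vertical axis) of the 13 features of RAB1B, TOR1A, COPB2 and GBF1 in 5 inseminated (red) and 5 non-inseminated (blue) sows, with group means as short lines. RAB1B feature 3834 lies below the 1st percentile of all values (dotted, 6.14) in 7 sows and at 12.6 in AI1059 (square), while AI1061 (triangle) is lowest in 8 features and highest in 2.

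RAB1A gave the opposite direction on both of its features, without passing the test. The gene mean was 10.84 ± 0.256 in inseminated and 11.04 ± 0.512 in non-inseminated sows, a difference of -0.21 (SE 0.23, exact permutation p = 0.437). Without AI1061, its lowest sow, the RAB1A difference was -0.41, with an unadjusted limma p under 0.05 and none after adjustment. AI1059, which was highest by far in RAB1B feature 3834, read 10.55 and 10.41 in the RAB1A features and was the lowest inseminated sow in both. The third measured Rab of the early secretory pathway, RAB2A, differed by 0.02 (SE 0.12).

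TOR1A, the only member of the torsin family and its cofactors with a feature named for it among the 7 genes listed, was measured by 2 features of 1 transcript, NM_001105298. Feature 3848 read 10.69, 10.64, 10.71, 10.56 and 10.73 in AI943, AI993, AI837, AI1059 and AI792. It read 10.77, 10.02, 10.68, 10.49 and 10.36 in AI788, AI1061, AI991, AI696 and AI992. The inseminated sows lay close together, between 10.56 and 10.73, and inside the wider non-inseminated range. Feature 25070 read 8.68, 8.43, 8.44, 8.36 and 8.52 in the inseminated sows in the same order and 8.62, 7.40, 8.59, 8.60 and 8.60 in the non-inseminated. Here 9 sows lay between 8.36 and 8.68, and AI1061 lay alone at 7.40.

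The difference of TOR1A was 0.20 (SE 0.14, exact permutation p = 0.183) by feature 3848 and 0.13 (SE 0.22, exact permutation p = 0.944) by feature 25070. The gene mean differed by 0.16 (SE 0.17), and by -0.01 without AI1061, so that its direction rested on that sow. The correlation between the features showed the same dependence. Pearson's r was 0.81 (permutation p = 0.0491, adjusted 0.126) with a Spearman's rho of 0.39 (permutation p = 0.267, adjusted 0.697), and r was -0.003 in the 9 sows without AI1061. Without AI1061 and AI992, the farthest from the median, it was 0.25. Both features were in the upper part of the array, with medians of 10.66 and 8.55.

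COPB2, a subunit of the COPI coat, had 4 features, of which 3 were designed on the cDNA AK231051. Feature 4453 read 12.35, 12.56, 12.54, 12.33 and 12.42 in AI943, AI993, AI837, AI1059 and AI792, and 12.50, 11.79, 12.35, 12.58 and 12.76 in AI788, AI1061, AI991, AI696 and AI992. Feature 8905 read 11.06, 11.03, 10.93, 11.02 and 10.87 in the inseminated sows and 11.08, 13.0, 10.89, 11.10 and 11.55 in the non-inseminated sows, in the same order. AI1061 was thus the lowest sow in one feature and the highest in another feature of the same cDNA. It was also lowest in feature 41210, at 9.80 against 9.99 to 10.55 in the others, and in feature 9107, designed on XM_001926104, at 7.45 against 7.61 to 8.08.

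None of the COPB2 features separated the groups. The differences were 0.05 (SE 0.16) for feature 4453, 0.02 (SE 0.16) for feature 41210, 0.0078 (SE 0.13) for feature 9107 and -0.54 (SE 0.34) for feature 8905, with exact permutation p from 0.111 to 0.952. The largest of these, in feature 8905, was -0.17 without AI1061. The gene mean differed by -0.12 (SE 0.08, exact permutation p = 0.0714) and kept this value without AI1061. In that sow the gene mean was 10.51, inside the range of the other 9 sows, because 1 raised and 3 lowered features cancelled.

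Agreement among the COPB2 features depended on the same sow. Features 4453 and 8905 had an r of -0.70 (permutation p = 0.0995, adjusted 0.185) and a rho of 0.19, and r was 0.76 without AI1061. Features 8905 and 41210 had an r of -0.71 (permutation p = 0.0406, adjusted 0.124) and -0.05 without it. The features of opposite behaviour in AI1061 could not be compared by sequence, since probe sequences were not used here.

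GBF1, the exchange factor for ARF, had 5 features, 4 of them from the cDNA AK233694. Feature 14003 read 11.37, 11.36, 11.61, 11.46 and 11.19 in the inseminated sows AI943, AI993, AI837, AI1059 and AI792, and 11.58, 10.76, 11.55, 11.55 and 11.63 in the non-inseminated AI788, AI1061, AI991, AI696 and AI992. Feature 18624 read 8.55, 8.39, 8.56, 8.31 and 8.37 in the first group and 8.59, 10.29, 8.67, 8.78 and 8.41 in the second, in the same order. As in COPB2, AI1061 was lowest in the one and highest in the other. It was also lowest in feature 13666 (7.03, others 7.21 to 7.69) and in feature 40974 (6.65, others 6.89 to 7.44).

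Feature 18624 had the smallest permutation p among the GBF1 features. Its means were 8.44 ± 0.112 in inseminated and 8.95 ± 0.764 in non-inseminated sows, a difference of -0.52 (SE 0.30, exact permutation p = 0.0397, limma adjusted p 0.9998). The groups overlapped, and the difference was -0.18 without AI1061. The other differences were -0.01 (SE 0.17) for feature 14003, -0.0079 (SE 0.15) for feature 13666, -0.03 (SE 0.11) for feature 20678 and 0.0039 (SE 0.17) for feature 40974. The gene mean differed by -0.11 (SE 0.08, exact permutation p = 0.0873), and by -0.13 without AI1061.

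The GBF1 features 13666 and 40974 tracked each other across sows. Their r was 0.96 (permutation p = 9e-05, adjusted 0.00162) with a rho of 0.88 (permutation p = 0.00157, adjusted 0.0283). It was 0.94 without AI1061 (adjusted permutation p = 0.0211) and 0.92 without AI1059 and AI1061, the sows farthest from the median. This was the only pair of 18 with an adjusted p under 0.05, by r or by rho. Both features were lowest in AI1061, and their medians of 7.53 and 7.35 lay near the median of the array. Feature 20678, from the predicted transcript XM_003359351, lay below the median of its array in all 10 sows, between 6.45 and 7.00, and had an r below 0 with each of the other 4 features.

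Over all 18 pairs of features of one gene, 10 had an r below 0 with all sows and 8 without AI1061, and 8 pairs changed sign when AI1061 was left out. All points of a pair share the arrays and their normalization.

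**Figure D2:**
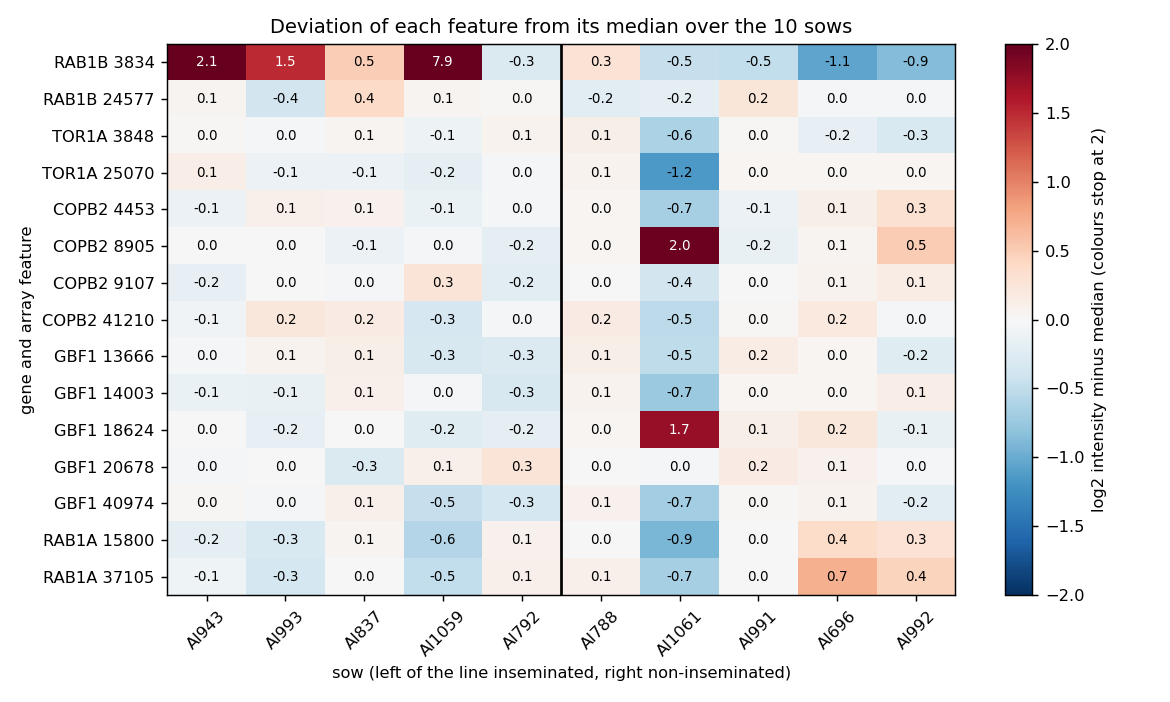
Deviation of each feature of RAB1B, TOR1A, COPB2, GBF1 and the related RAB1A (rows) from its own median in the 10 sows (columns), in log2 intensity, with the number in each cell and colours that stop at 2. AI1061 is low in most rows and stands high in COPB2 feature 8905 and GBF1 feature 18624, and AI1059 stands high in RAB1B feature 3834.

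AI1061 stood apart on the whole array and not in these genes alone. Its correlation with other arrays ran from 0.927 to 0.945, where the other 9 arrays had 0.966 to 0.986 among themselves. It was the lowest sow in 26.7% and the highest in 19.6% of all features, beside 8 and 2 of the 13 members. The list of secretory cell markers, of which 12 of 18 were measured, also holds the general epithelial genes EPCAM, CDH1, KRT8 and KRT18. Its mean deviation was lowest in AI1061 (-0.71, other sows -0.30 to 0.33). So was that of the 3 of 15 ciliated cell markers (-1.17, others -0.33 to 0.47). The mean deviation of stromal markers, 5 of 10, was highest there (0.93, others -0.85 to 0.64). It leaned on THY1, at 10.08 in AI1061 against a median of 7.83. DCN and PDGFRB were also highest in AI1061, but COL1A2 and FN1 were highest in AI837. OVGP1, the oviductal glycoprotein that defines secretory cells, read 15.91 to 15.98 in every sow, at the top of the scale, where differences are compressed. The part of cell composition, RNA quality or the array in the AI1061 values was not tested.

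**Figure D3:**
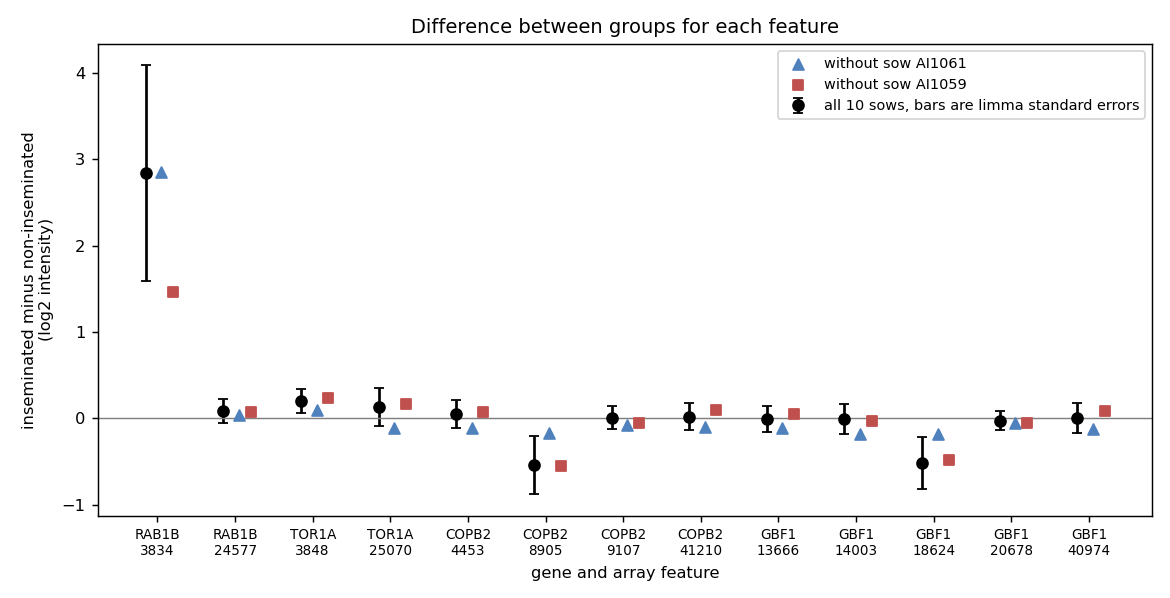
Difference between inseminated and non-inseminated sows in log2 intensity for each feature, with all 10 sows (black, bars are limma standard errors), without AI1061 (triangles) and without AI1059 (squares). RAB1B feature 3834 falls from 2.84 to 1.46 without AI1059, and COPB2 feature 8905 and GBF1 feature 18624 move from -0.54 and -0.52 to -0.17 and -0.18 without AI1061.

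No member separated the groups without overlap, where 0.723% of all features did. With AI1061 left out, all 9 features of COPB2 and GBF1 had a difference below 0. These ran from -0.05 in GBF1 feature 20678 to -0.18 in GBF1 features 14003 and 18624. Most features of each gene came from the same cDNA and are not separate measurements. Over all features the median without AI1061 was -0.005, with 1346 higher and 1819 lower at an unadjusted limma p under 0.05. The share of all features below 0 in this setting was not counted. The RAB1B features were then at 2.86 and 0.04 and the TOR1A features at 0.09 and -0.11. With both AI1059 and AI1061 left out, the RAB1B gene difference was 0.76, TOR1A 0.02, COPB2 -0.11 and GBF1 -0.10.

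By likeness of pattern over the 10 sows, among 8177 features of named genes at or above the 40th percentile of mean level, RAB1B feature 3834 was most like CDC45, GTF3C4 and RPP30 (r = 0.94 for each). In feature 3834 AI1059 lay 8.14 above the median of the other sows, so that these r rest mainly on that sow. An r over 0.9 with feature 3834 was found for 86 of all 45220 features. Feature 24577 was most like NAALADL1 (0.85), THBD (0.84) and SLN (0.82). No gene was shared by the lists of the RAB1B features. The TOR1A features had MTF2 in common, with r of 0.99 for feature 3848 and 0.98 for feature 25070. Both TOR1A features were lowest in AI1061, and they passed 0.9 with 125 and 714 of all features. COPB2 feature 8905 was most like RBM45, TPRKB and FRK (0.98 each). Counted over all 45220 features, named or not, it had an r over 0.9 with 1132. GBF1 feature 18624 was most like BIN1, SECISBP2L and CPNE3 (0.98 each) and passed 0.9 with 1091 of all features. Both of these members were highest in AI1061. COPB2 feature 4453 was most like HIVEP1, RAB5A and ENTPD7 (0.97 each), where RAB5A is a Rab GTPase of early endosomes. These correlations are descriptions of 10 arrays and carry no test.

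Of 212 listed genes of ER to Golgi transport, ER entry, ER folding and the ER stress response, 56 were measured, in 11 lists. These 56 include the 4 member genes. Of these 27 were higher and 29 lower in inseminated sows, with a median difference of -0.01, and over all 4560 genes 2135 were higher and 2425 lower with a median of -0.01. At an unadjusted p under 0.05 in limma 2 of the 56 were higher, SSR1 and RAB1B, itself a member, and none lower. Of all genes 1.47% were higher and 1.12% lower. None passed after adjustment over all genes (smallest adjusted p 0.9994). The balance of directions depended on single sows. Without AI992, 40 were higher and 16 lower with a median of 0.06, and without AI696 34 were higher and 22 lower. Without AI1061, 17 were higher and 39 lower, with a median of -0.10 against -0.02 over all genes. In this last setting none was higher and 5 were lower at an unadjusted p under 0.05, namely ARF1, RAB1A, SCFD1, VCP and YIPF5, beside 106 higher and 247 lower genes in all. AI1061 was the lowest sow in 29 of the 56 (51.8%) and in 1426 of all 4560 genes (31.3%).

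SSR1, a subunit of the translocon-associated protein complex at the ER membrane, differed by 0.29 (SE 0.13, exact permutation p = 0.0397). Its mean of 3 features read 10.85, 10.97, 11.16, 11.26 and 11.11 in AI943, AI993, AI837, AI1059 and AI792, and 10.77, 10.41, 11.03, 10.91 and 10.78 in AI788, AI1061, AI991, AI696 and AI992. The groups overlapped, and the difference without AI1061 was 0.20. The other 5 measured genes of ER translocation lay between -0.13 and 0.14, with SPCS1, a subunit of signal peptidase, at -0.13 (SE 0.13) and TRAM2 at 0.14 (SE 0.10).

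None of the COPI, ARF and COPII genes, COPB2 and GBF1 among them, had an unadjusted limma p under 0.05 with all sows. The other COPI subunits measured were COPA, at 0.03 (SE 0.15), and COPZ1, at -0.01 (SE 0.12). Of 7 ARF genes and regulators, which include GBF1, 2 were higher and 5 lower. Their median of -0.11 was the value of GBF1 itself. ARF1 was at -0.25 (SE 0.29) and ARF6 at -0.22 (SE 0.12). ARF1, a GTPase that GBF1 activates, was lowest in AI1061 (8.79) and read 9.02 to 10.35 in the other sows. Without AI1061 its difference was -0.52, with an unadjusted limma p under 0.05. The median of the ARF list was 0.03 without AI992. The COPII genes, 6 of 18 listed, had a median of -0.04, and of 0.04 without AI992, with SEC23A, a coat subunit, at -0.12 (SE 0.15) and at 0.03 without AI1061, which was its highest sow.

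Tethers that hold vesicles at the ER-Golgi interface lay below 0 in 5 of 5 measured genes, with a median of -0.11. GORASP2, a Golgi stacking protein, was at -0.10 (SE 0.09), TRIP11 at -0.12 (SE 0.11) and BLZF1 at -0.11 (SE 0.14). None had an unadjusted limma p under 0.05. The 3 SNARE genes and regulators ran from -0.10 to -0.06. Cargo receptors of the TMED family and YIPF5 ran from -0.15 to 0.0053, and all 4 were lowest in AI1061, where YIPF5 read 7.64 against 8.64 to 9.98 in the other sows. The median of these 4 was -0.09 with all sows, -0.24 without AI1061 and 0.08 without AI992. Rab GTPases outside the early secretory pathway, 11 of 43 listed, were higher in 1 and lower in 10, with a median of -0.07, and with RAB10 at -0.24 (SE 0.19) and RAB34 at 0.16 (SE 0.12).

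**Figure D4:**
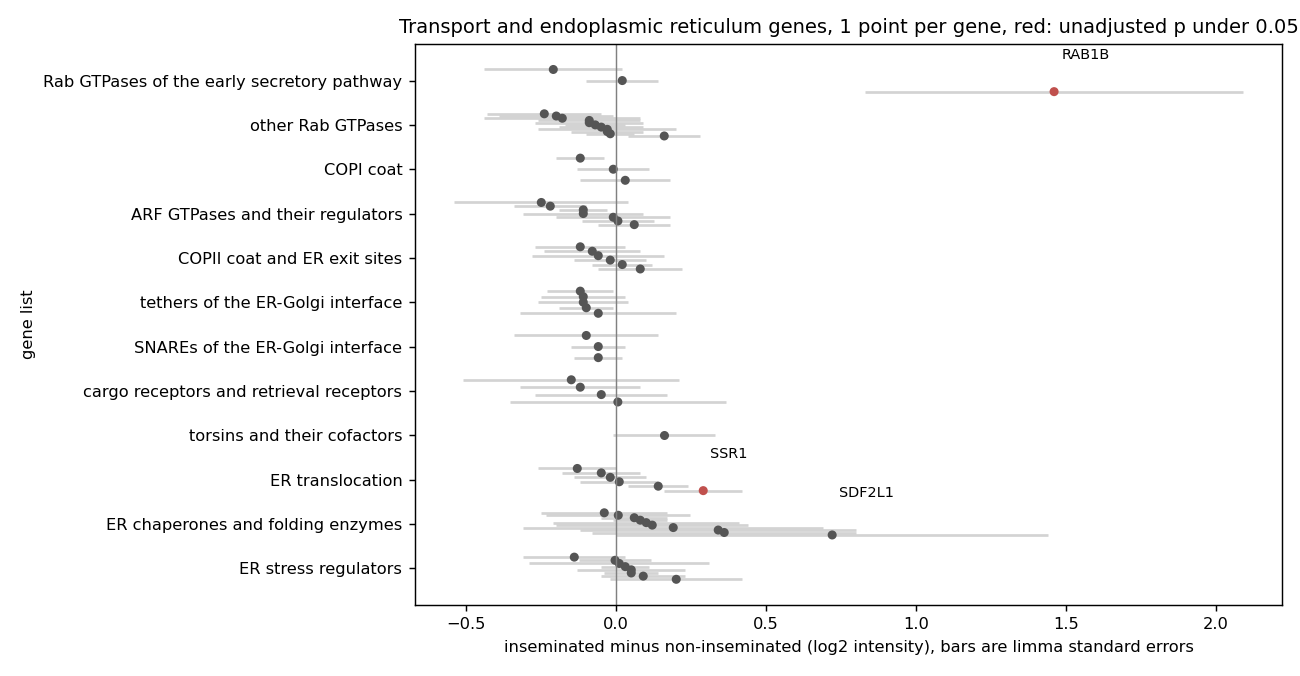
Difference between inseminated and non-inseminated sows (horizontal axis, log2 intensity) for each measured gene of 12 lists, with limma standard errors as bars and red points at an unadjusted p under 0.05. RAB1B at 1.46 and SSR1 at 0.29 are red, and outside the ER chaperones the other genes lie between -0.25 and 0.20.

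Several ER chaperones and folding enzymes varied widely between sows, mainly among the non-inseminated. Of 10 measured genes 9 were higher in inseminated sows, with a median difference of 0.11, and 6 were higher without AI1061, with a median of 0.08. The median was 0.02 without AI991, 0.03 without AI788 and 0.05 without the inseminated AI993, against 0.18 without the inseminated AI792, 0.29 without AI696 and 0.30 without AI992. None had an unadjusted limma p under 0.05. SDF2L1, a component of an ER chaperone complex, read 13.16, 14.46, 13.62, 14.08 and 12.72 in AI943, AI993, AI837, AI1059 and AI792, and 11.43, 12.64, 11.02, 14.83 and 14.50 in AI788, AI1061, AI991, AI696 and AI992. The non-inseminated sows thus held both the lowest and the highest values, and the difference of 0.72 had an SE of 0.72.

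HSP90B1, the ER form of the HSP90 chaperones, was low and high in the same non-inseminated sows, with 12.48, 12.72 and 12.51 in AI788, AI1061 and AI991 and with 14.64 and 14.37 in AI696 and AI992, around 13.32 to 14.34 in the inseminated sows. HSPA5, the main HSP70 chaperone of the ER lumen, had SDs of 1.18 in non-inseminated and 0.198 in inseminated sows, and its difference was 0.34 (SE 0.46). HSPA5 was named after its values had been seen. The gene means of COPB2 and GBF1 had SDs of 0.105 and 0.0912 in non-inseminated sows, but these means cancel features that went opposite ways in AI1061. Single features had SDs there of up to 0.859 (COPB2 feature 8905) and 0.764 (GBF1 feature 18624). The difference in spread between groups was not tested.

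The mean deviation of the chaperone list ran from -0.24 to 0.41 in the inseminated sows, was -0.72, -0.51 and -0.74 in AI788, AI1061 and AI991, and was highest in AI696 and AI992, at 0.67 in each. The mean deviations of secretory cell markers were -0.18, -0.71 and -0.30 in AI788, AI1061 and AI991 and 0.29 and 0.33 in AI696 and AI992. Among these markers SPP1, a secreted glycoprotein, read 12.53, 13.36 and 13.05 in the first 3 of these sows and 15.72 and 15.95 in the others. Its 12.53 in AI788, against a median of 14.75, largely made up the mean deviation of that sow. MUC1, KRT18, LTF, CLU, DMBT1 and LCN2 were likewise lower in each of the first 3 than in the others. EPCAM and KRT8 went another way, highest in AI788 at 14.23 and 14.38. In AI991 they read 13.80 and 13.60, above 13.52 and 13.31 in AI696. PIGR did not follow the split either, and CDH1 read 9.16 in both AI788 and AI992. OVGP1, at the top of the scale, was slightly higher in the first 3 sows (15.96 to 15.98) than in AI696 (15.94) and AI992 (15.93). Smooth muscle markers, 5 of 9 measured, ran the other way at the ends, highest in AI991 (0.97) and lowest in AI992 (-1.26). The part of either marker list in the chaperone values was not tested. Genes of the ER stress response, 8 of 23 listed, moved less as a list, with mean deviations of -0.42 in AI1061 to 0.24 in AI696 and a median difference of 0.04. Of these, DDIT3, SELENOS and ATF4 were lower in AI788, AI1061 and AI991 than in AI696 and AI992, and the rest were not. Cargo receptors also spread widely among the non-inseminated sows, with mean deviations from -0.83 in AI1061 to 0.77 in AI992. HYOU1, another ER chaperone, lay near the dim bulk of the array at 6.55 to 6.96 and did not share the spread.

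**Figure D5:**
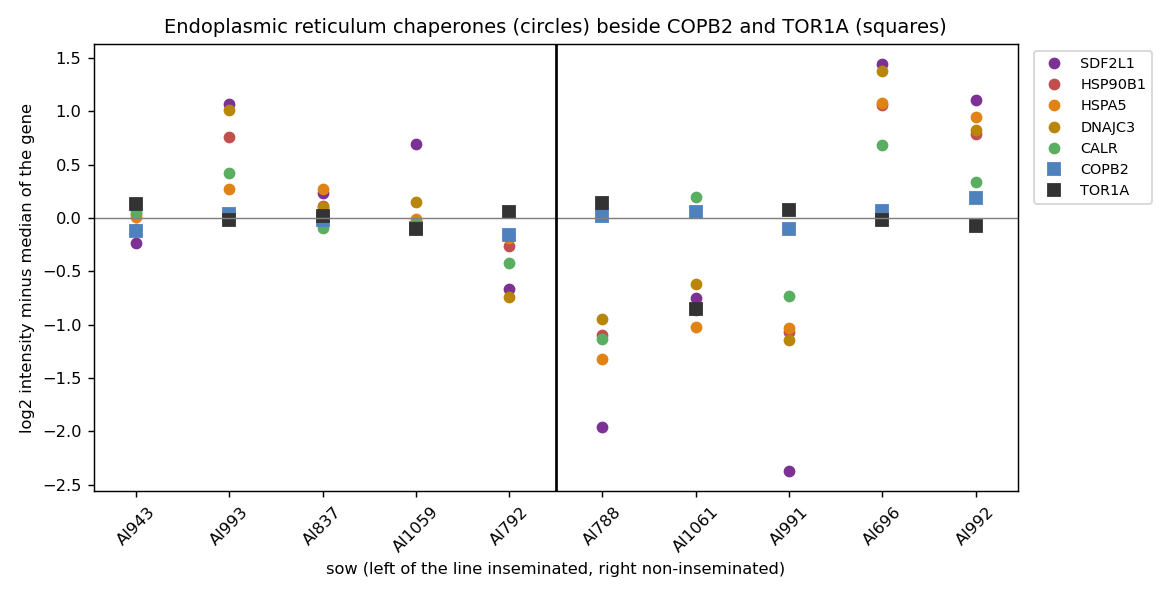
Deviation of 5 ER chaperone or folding genes (circles) and of COPB2 and TOR1A (squares) from the median of each gene over the 10 sows, in log2 intensity. The chaperones spread widely among the non-inseminated sows, low in AI788, AI991 and, apart from CALR, AI1061 and high in AI696 and AI992, while the mean of the COPB2 features, in which opposite features cancel, stays near 0 and TOR1A departs in AI1061.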

How the data were processed

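Total RNA of 10 sows was labelled and hybridized to single-colour Agilent porcine arrays. The authors read spots with GenePix Pro 6.0, removed background with the normexp method (offset 10) and then normalized by quantiles, and the deposited values are log2 intensities, used as deposited. Background values and spot flags were not analysed here, so that signal below background cannot be marked, and the number of arrays limits the precision. Symbols came from the platform annotation, with 446 of them updated where an accession matched Sscrofa11.1 (6055 features). A single symbol was paired with 10290 features and none with the other 34930. Accessions of 3 of the 13 members were in that reference.

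Features, and gene means of features, were compared between groups with limma 3.58.1 in R 4.3.3 (lmFit, eBayes, Benjamini-Hochberg adjustment over all features or genes, tested on simulated data) and by two-sided exact permutation (252 relabellings). Each sample is 1 sow. Correlations used 100000 permutations in Python 3.11.15. A list's mean deviation in a sow is the mean over its genes of the value minus that gene's median. The members and lists were chosen with earlier results of these data known. Besides the members, the genes named were, in each list, those with the smallest unadjusted p (up to 3) and the largest difference, and the features most like each member; any other was named after its values were seen.

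Alternatives were other centrings, a repeated quantile normalization, a filter on dim features, a floor, trended and robust variance, array weights, an equal-variance test, other summaries of features, and leaving out each sow. Leaving out AI1059 and AI1061 together, and AI1061 from the correlations, was added after seeing the data.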

Additional observations from a re-analysis of the deposited data

Results flagged for a closer look

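In the 26 sets of 5 sows formed by the 13 features in each group, 4 values lay farther from the nearest other sow, relative to the range of their group, than Dixon's 95% limit of 0.710. Chance marks about 1 in 20 such groups if they are independent, but these sets share the same arrays. The share flagged in this way over all 45220 features was not counted. All 4 belonged to the non-inseminated sow AI1061, whose array stood apart over all features, so they do not single out the members. TOR1A feature 25070 was low at 7.40, COPB2 feature 9107 was low at 7.45 and GBF1 feature 14003 was low at 10.76, and GBF1 feature 18624 was high at 10.29. The inseminated sow AI1059 in RAB1B feature 3834 had a ratio of 0.707, just under the limit, since the other 4 inseminated sows were themselves spread. The cause of these values was not tested.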

How the results depend on the processing

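No paired analysis was made, since the groups were made up of different sows and nothing matches a sow of one group to a sow of the other. No feature passed a false discovery rate of 5% with all sows, and leaving out single sows gave 0 to 1, the 1 being a feature of TMOD3 without AI696. The count at an unadjusted p under 0.05 was 1525, against 2577 with array weights, 803 with dim features left out and 3165 without AI1061. The RAB1B gene difference of 1.46 was 3.06 as a log2 ratio of linear means, 0.70 with a floor at the 5th percentile and 0.77 to 1.79 without single sows. It was 0.08 with dim features left out or by the feature with the highest mean, both of which keep only feature 24577. TOR1A ran from -0.01 to 0.24, and COPB2 was 0.05 by its feature with the highest mean. Among features, array weights turned TOR1A 25070 (-0.06), COPB2 4453 (-0.02), 9107 (-0.07) and 41210 (-0.05) and GBF1 40974 (-0.09). Leaving out AI1059 and AI1061 together turned the same 5, to -0.08, -0.08, -0.15, -0.02 and -0.05. Without single sows the ranges that crossed 0 were -0.0096 to 0.18 for RAB1B 24577, -0.11 to 0.19 for TOR1A 25070, -0.11 to 0.14, -0.08 to 0.05 and -0.10 to 0.10 for COPB2 4453, 9107 and 41210, and -0.11 to 0.05, -0.18 to 0.04, -0.09 to 0.05 and -0.13 to 0.08 for GBF1 13666, 14003, 20678 and 40974.

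For the correlation of features, RAB1B was -0.08 within groups, -0.30 without the 2 farthest sows and -0.0063 without AI1061, and TOR1A was -0.003 without AI1061. Without the 2 farthest sows COPB2 4453 with 8905 was 0.35, 8905 with 9107 was 0.34 and 8905 with 41210 was 0.19, and without AI1061 the first of these was 0.76, the second 0.44 and 9107 with 41210 was -0.31. GBF1 18624 reached 0.63 with 13666, 0.33 with 14003 and 0.71 with 40974 without the 2 farthest sows, and 0.73, 0.46 and 0.79 without AI1061. GBF1 20678 with 40974 was 0.23 without the 2 farthest sows. The cause of these changes was not tested. Direction and side of the threshold were kept in 46 values of the 4 genes, and in 39 without single sows. These counts include the smaller RAB1B differences given above. No gene passed the threshold with all sows, so that keeping its side says little about stability. Among the 56 transport genes, neither RAB1B nor SSR1 had an unadjusted p under 0.05 with dim features left out, array weights, an equal-variance test, the feature with the highest mean, or without AI788, AI1061 or AI992. RAB1B alone lost it with the floor and without AI943, AI991 or AI696. SSR1 alone lost it with trended and robust variance, without AI837, AI1059 or AI792, and without AI1059 and AI1061 together. Signals near the floor of the array limit RAB1B feature 3834, which lay below the 5th percentile of all values in 8 sows. RAB1B feature 24577 lay below that percentile in no sow, though below the median of its array in 8 sows.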
